A study of Homo sapiens with 10 samples.

Results

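The genes described here are 41 human genes of the cell division cycle, taken by name, as known genes of the phases, and with no threshold on a measured value: 16 S phase genes and 25 mitosis genes, of 58884 genes counted in every library. Each symbol matched 1 Ensembl identifier, and all 41 had enough counts to be tested. The S phase and mitosis genes were treated apart throughout.

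Polyadenylated RNA was compared between HCT116 cells, a human colorectal cancer line of wild-type genotype, and DNMT1 KO cells, a line made from HCT116 by disrupting DNMT1, whose product copies DNA methylation onto newly replicated DNA. The line is a hypomorph and not a null, since a shortened enzyme is still made, and it is 1 published line. The 6 HCT116 libraries are replicates 1, 2, 3, 7, 8 and 9, and the 4 DNMT1 KO libraries are replicates 1 to 4. The labels place both replicates numbered 1 in batch 1 and those numbered 2 and 3 in batch 2. Batch 3 is a single DNMT1 KO library, replicate 4, and batch 4 is the HCT116 replicates 7, 8 and 9. The study describes the replicates as independent cultures. The p-values measure the spread between cultures of these lines, which includes differences between batches where batch is not in the fit. What sets the batches apart is not given in the labels.

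Dividing cells switch on these genes in waves. In late G1 the factor E2F1 and cyclin E, encoded by CCNE1 and CCNE2, start a programme that includes the replicative helicase subunits MCM2 to MCM7, the loaders CDC6 and CDT1, the helicase partners CDC45 and GINS2, and the nucleotide enzymes RRM1, RRM2 and TYMS. Later, cyclins A and B with CDK1, the Aurora and Polo kinases, the spindle checkpoint, the kinetochore and the spindle motors are made for mitosis. Promoters of S phase genes often carry E2F sites, while those of mitosis genes often carry a CCAAT box and a cell cycle homology region (CHR), an element bound by the MuvB complex. In non-dividing cells both waves are shut off.

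Promoter sequence is shown for the called genes with the smallest p-values in the HCT116 batch comparison described further on, as the members that moved together there. BUB1 (chr2:110678064-110678313, minus strand), GINS2 (chr16:85688955-85689204, minus strand), CCNB1 (chr5:69166900-69167149, plus strand) and AURKB (chr17:8210226-8210475, minus strand) were taken in order of p. TTK was left out, as the set of RefSeq promoters used held no window for it. CDC20 (chr1:43358731-43358980, plus strand) was added after the windows had been searched, to show both mitotic elements in 1 promoter. Each line gives the 250 bases before the first listed RefSeq start on GRCh38.p14, 5′ to 3′ along the gene. Capitals mark a CCAAT box, a CHR or an E2F site.
BUB1: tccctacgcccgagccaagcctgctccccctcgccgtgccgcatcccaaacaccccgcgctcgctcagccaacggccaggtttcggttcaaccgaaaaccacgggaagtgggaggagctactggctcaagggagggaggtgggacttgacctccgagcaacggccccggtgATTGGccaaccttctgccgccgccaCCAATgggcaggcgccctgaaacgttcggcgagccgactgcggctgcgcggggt
GINS2: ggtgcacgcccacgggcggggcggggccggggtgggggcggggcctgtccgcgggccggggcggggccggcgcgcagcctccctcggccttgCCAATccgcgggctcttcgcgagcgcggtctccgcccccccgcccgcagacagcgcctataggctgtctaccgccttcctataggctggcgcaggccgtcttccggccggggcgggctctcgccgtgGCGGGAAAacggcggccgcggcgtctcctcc
CCNB1: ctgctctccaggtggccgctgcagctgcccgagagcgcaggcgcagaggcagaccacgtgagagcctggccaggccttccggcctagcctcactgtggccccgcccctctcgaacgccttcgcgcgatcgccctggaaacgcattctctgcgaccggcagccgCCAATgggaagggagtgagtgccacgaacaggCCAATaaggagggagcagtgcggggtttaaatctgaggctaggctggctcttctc
AURKB: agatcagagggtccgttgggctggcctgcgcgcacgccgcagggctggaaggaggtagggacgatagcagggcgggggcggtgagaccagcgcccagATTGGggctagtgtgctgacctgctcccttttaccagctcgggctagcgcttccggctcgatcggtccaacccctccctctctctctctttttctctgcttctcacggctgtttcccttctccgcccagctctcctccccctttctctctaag
CDC20: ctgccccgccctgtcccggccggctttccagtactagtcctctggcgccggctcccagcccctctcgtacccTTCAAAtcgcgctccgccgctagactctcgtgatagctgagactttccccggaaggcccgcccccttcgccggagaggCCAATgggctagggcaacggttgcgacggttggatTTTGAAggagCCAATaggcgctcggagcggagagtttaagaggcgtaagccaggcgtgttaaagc

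BUB1 and CCNB1 each hold a pair of CCAAT boxes within 100 bases of the start, at 79 and 54 bases before it in BUB1 and at 87 and 55 bases before it in CCNB1. In CDC20 a TTTGAA lies 65 bases before the start, between CCAAT boxes at 100 and 55 bases, and a reverse copy lies at 178 bases. The S phase gene GINS2 has an E2F word, GCGGGAAA, 31 bases before its start, and a CCAAT box at 158 bases. AURKB shows only a CCAAT box, at 153 bases, and neither BUB1, CCNB1, GINS2 nor AURKB holds TTTGAA in this window.

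The same words were counted on both strands in windows from 250 bases before to 50 bases after the start, 1 window per gene. Where a gene had more than 1 window, the first listed was used, and its other starts were not searched. The set of RefSeq promoters used held a window for 33 of the 41 genes. CCNE2, MCM4, MCM5, AURKA, TPX2, TTK, BIRC5 and UBE2C had no entry. TTTGAA was present in 14 of 20 mitosis genes and in 1 of 13 S phase genes (RRM1), against 15.4% of 27305 gene promoters. An E2F word (TTTCCCGC, TTTGCCGC, TTTCGCGC or TTTGGCGC) was present in 9 of 13 S phase genes and in 3 of 20 mitosis genes (CDK1, CENPA and NUSAP1), against 3.33% of all. CCAAT was found in 16 of 20 mitosis and 9 of 13 S phase genes, against 35.7% of all, and CCAAT together with TTTGAA in 11 of 20 and 1 of 13, against 6.08%. These are matches of letters, not shown binding sites.

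Depth was 35418732 to 85991812 counts per HCT116 library and 26700853 to 55732013 per DNMT1 KO library, and batch 4 held the 3 deepest libraries. DNMT1 itself, the check of the labels, was at 89.7 to 263 CPM (counts scaled to library size, as explained with the processing) in HCT116 and at 14.1 to 22.3 CPM in DNMT1 KO, with no overlap (log2 fold change -2.97, edgeR adjusted p = 1.74e-05). The epithelial markers EPCAM, KRT8, KRT18, CDH1 and CLDN7 were well expressed in HCT116 and lower in DNMT1 KO, 5 of 8 colon epithelial markers tested. VIL1 went the other way, from at most 0.0557 CPM in HCT116 to 0.505 to 0.817 CPM in DNMT1 KO, and KRT19 and CDX2 did not pass. The intestinal markers KRT20, CDX1 and LGALS4 were at or near 0 in every library. Of 10 markers of blood, endothelial and stromal cells 5 could be tested, and COL3A1, VWF and PECAM1 were higher in DNMT1 KO. COL3A1 was at 1.2 to 8.75 CPM there and at most 0.0619 CPM in HCT116, VWF at 2.36 to 3.63 against at most 0.680 CPM, and PECAM1 at 0.761 to 1.53 against at most 0.279 CPM. The 5 tested markers summed to 7.08 to 19.7 CPM in HCT116, where COL1A1 was at 6.15 to 19.5 CPM, and to 14.0 to 18.8 CPM in DNMT1 KO. PTPRC was at 0 in 8 of the 10 libraries. The part of these markers in the results was not tested. HCT116 replicate 3 stood apart for the genes described here, so counts that rest on it are also given without it.

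Per kilobase of gene model, the most abundant of the 41 genes in HCT116 was CCNB1, the mitotic cyclin B1, with a mean of 113 CPM per kb (85.2 in DNMT1 KO). MCM7 followed with 109 (119 in DNMT1 KO) and CDC20, the activator of the anaphase-promoting complex, with 107 (114 in DNMT1 KO). At the other end stood the kinetochore motor gene CENPE with 2.15 and CCNE2 with 1.97. S phase and mitosis genes were mixed along this order. Part of the exonic sequence of some members lies in exons of other genes, 62.2% for NUSAP1, 47.5% for TYMS, 37.1% for CCNE2, 23.6% for MCM2 and 12.8% or less for the others, and counting by strand is not stated, so their levels are less certain.

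Whether DNMT1 KO cells express S phase or mitosis genes at another level than HCT116 was asked first. None of the 16 S phase genes and none of the 25 mitosis genes passed an adjusted p of 0.05 in edgeR's quasi-likelihood test, against 8.45% of 19279 genes that passed as higher and 7.61% as lower (7.42% and 6.49% also past a log2 fold change of 1 or -1). None had an unadjusted p under 0.05 in edgeR either, against 5327 of 19279 genes, and DESeq2 also called none. The median log2 fold change was -0.24 over S phase genes (5 positive, 11 negative) and -0.03 over mitosis genes (12 positive, 13 negative), beside -0.07 over all genes tested. That last median moved to 0.14 when library totals alone set the scale, which put S phase genes at -0.03 and mitosis genes at 0.19. Without HCT116 replicate 3 the medians were -0.34 and -0.18. In bulk RNA, fewer cells in a phase and less of these RNAs per cell cannot be told apart.

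The precision was low. The 95% intervals of the log2 fold changes had a median half-width of 0.90 for S phase and 1.04 for mitosis genes, and those of 12 of 16 S phase and 22 of 25 mitosis genes reached -1 or 1. A log2 change of 1 or -1 thus lay within the interval of most of them, and the test does not show that the groups were alike.

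**Figure D1:**
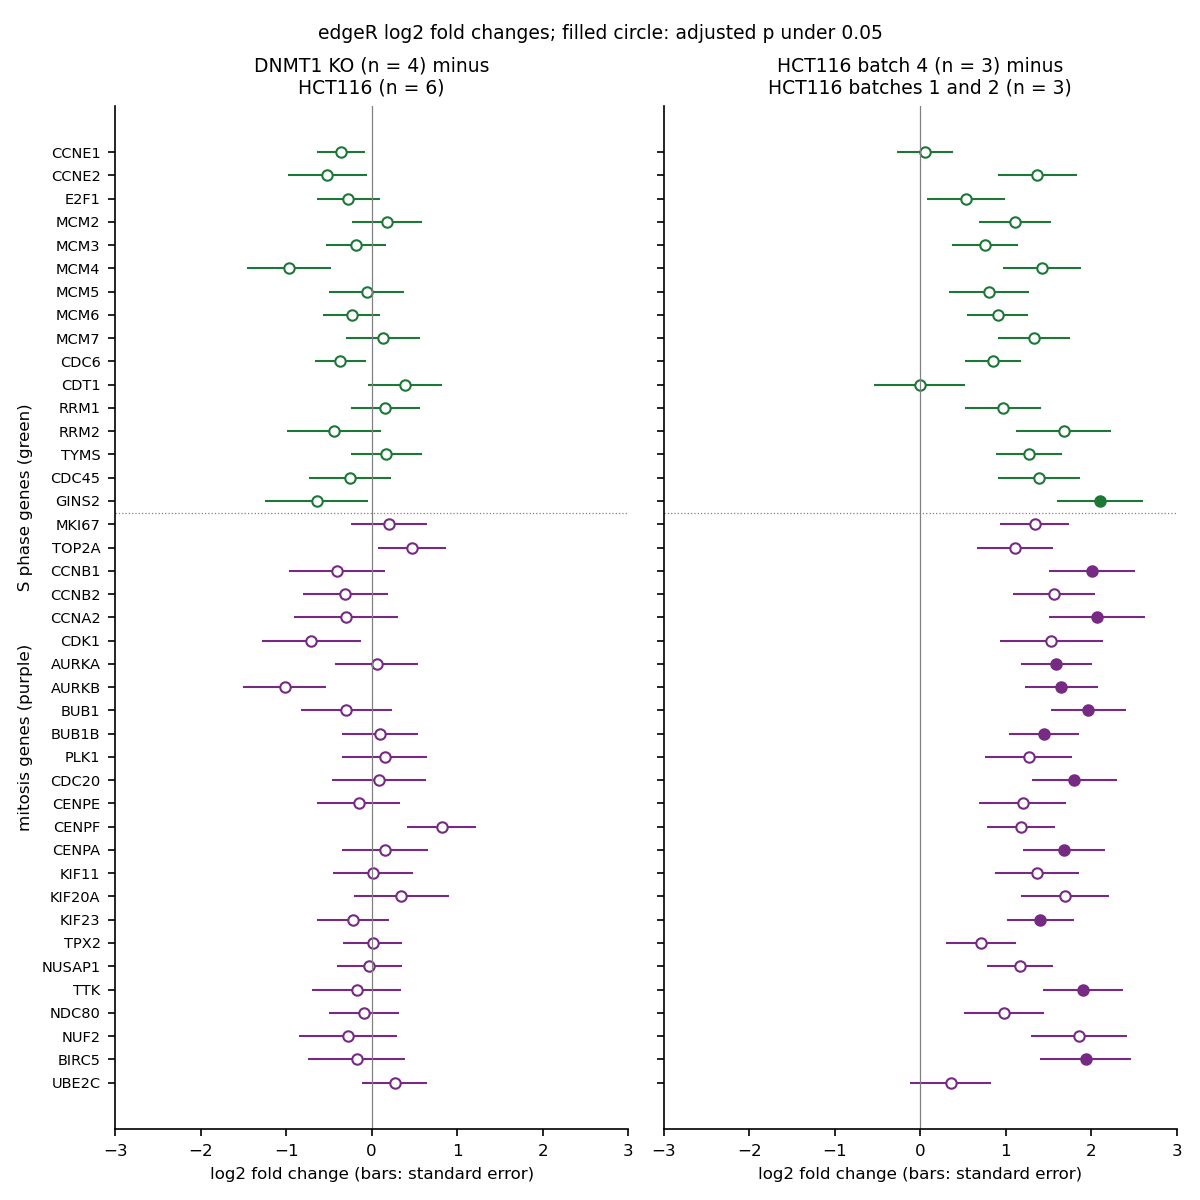
edgeR log2 fold changes (circles) with standard errors (bars) for the 16 S phase genes (green) and 25 mitosis genes (purple), DNMT1 KO minus HCT116 on the left and HCT116 batch 4 minus HCT116 batches 1 and 2 on the right; filled circles have an adjusted p under 0.05. No circle is filled on the left, while 11 mitosis genes and GINS2 are filled on the right.

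AURKB, the catalytic kinase of the chromosomal passenger complex, had the smallest p of the 41. It was at 11.5, 73.4 and 105 CPM (lowest, median and highest) in HCT116, and at 30.4, 36.1, 20.7 and 42.4 CPM in DNMT1 KO replicates 1 to 4. Every DNMT1 KO value lay inside the HCT116 range, in its lower part. The log2 fold change was -1.02 (SE 0.49, adjusted p = 0.193). Without HCT116 replicate 3, its lowest library, the change was -1.19 (SE 0.35) and passed, at an adjusted p of 0.0277, the only 1 of the 41 to do so (6.47% of all genes were called lower there). When only batches 1 and 2 were fitted, with a batch term, it was 0.03 (adjusted p = 0.976). DNMT1 KO was below HCT116 in batch 1 (log2 ratio -0.79) and above it in batch 2 (0.54).

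CENPF, a large kinetochore protein of the G2 and M phases, lay on the other side. Its HCT116 values were 50.6, 178 and 325 CPM, and the DNMT1 KO libraries had 227, 495, 232 and 293 CPM. All 4 lay above the HCT116 median and 3 of them inside its range, with replicate 2 above it. The log2 fold change was 0.82 (SE 0.40, adjusted p = 0.201).

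Among S phase genes, MCM4, a subunit of the helicase, had the most negative value. HCT116 ran from 92.0 over a median of 364 to 646 CPM, and DNMT1 KO was at 174, 223, 71.3 and 214 CPM. DNMT1 KO replicate 3 was the lowest of all 10 libraries and the other 3 lay inside the HCT116 range. The log2 fold change was -0.97 (SE 0.50, adjusted p = 0.225). With batch as a term over all libraries it turned to 0.034, and in batch 2 alone it was 0.51.

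The loading factors CDC6 and CDT1 and the E cyclins overlapped between the groups too. CDT1 was at 54.5, 111 and 313 CPM in HCT116 and at 241, 196, 97.0 and 247 CPM in DNMT1 KO (log2 fold change 0.39, SE 0.44, adjusted p = 0.616), the most positive value of the S phase genes. CDC6 was at 70.0, 147 and 219 CPM against 104, 143, 82.9 and 138 CPM (log2 fold change -0.37, SE 0.30, adjusted p = 0.481). For both, all 4 DNMT1 KO libraries lay inside the HCT116 range. CCNE1 was at 26.2, 34.2 and 47.4 CPM in HCT116 and at 27.7, 35.9, 15.3 and 35.1 CPM in DNMT1 KO, where replicate 3 fell below the HCT116 range (log2 fold change -0.36, SE 0.28, adjusted p = 0.446). CCNE2 was lower in abundance, at 1.71, 9.07 and 16.6 CPM against 5.65, 6.29, 4.57 and 7.67 CPM (log2 fold change -0.52, SE 0.46, adjusted p = 0.516). With batch as a term over all libraries CDC6 turned to 0.056 and CCNE2 to 0.33, and in batch 2 alone they were at 0.23 and 0.75.

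Every DNMT1 KO library lay inside the range of the HCT116 libraries for 12 of 16 S phase and 22 of 25 mitosis genes, against 33.7% of all genes tested. Without HCT116 replicate 3, which sets the lower end for every mitosis gene, these were 10 and 14 genes, against 25.5%. No member separated the groups, with or without HCT116 replicate 3, while over all 10 libraries 8.39% of all genes were higher and 6.80% lower in every DNMT1 KO library than in every HCT116 library. The SD of log2 CPM was larger in HCT116 than in DNMT1 KO for 15 of 16 S phase genes (median 0.95 against 0.54) and for 25 of 25 mitosis genes (median 1.30 against 0.48), and for 73.1% of all genes. Without HCT116 replicate 3 it was larger for 15 S phase genes (median 0.76) and 23 mitosis genes (median 0.73), against 67.7% of all genes. HCT116 has 3 batches with 1 to 3 libraries each and DNMT1 KO has 3 batches with 1 or 2 libraries each.

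**Figure D2:**
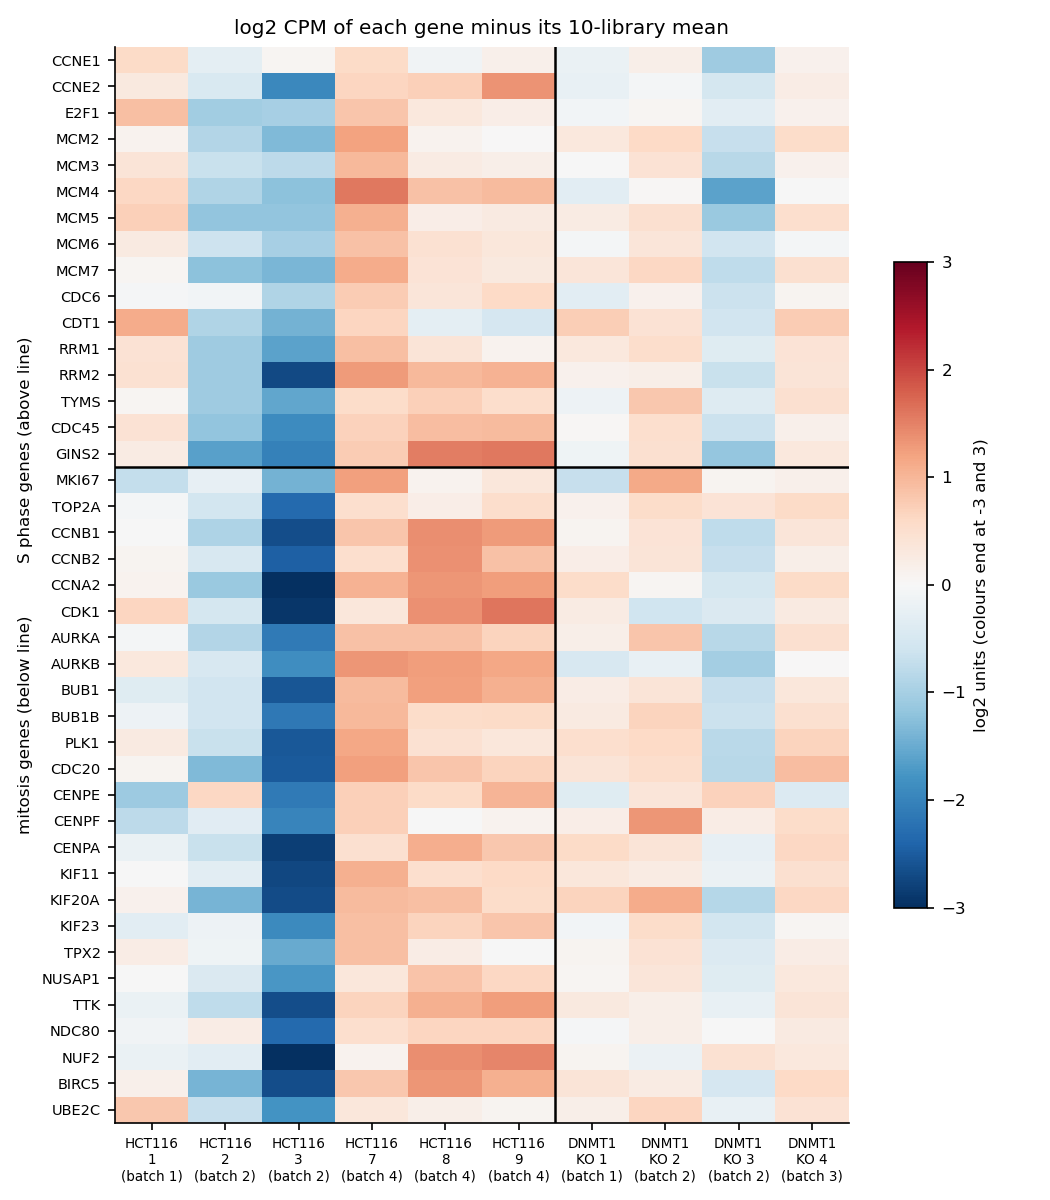
Heat map of log2 CPM of each of the 41 genes minus its mean over the 10 libraries (colour, log2 units, ending at -3 and 3), with S phase genes above and mitosis genes below the horizontal line and the 6 HCT116 libraries left and the 4 DNMT1 KO libraries right of the vertical line. HCT116 replicate 3 is the lowest library for 25 of 25 mitosis genes, and the batch 4 libraries of HCT116 are mostly above the mean.

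The spread within HCT116 followed single libraries and batches. HCT116 replicate 3 was the lowest of the 10 libraries for 25 of 25 mitosis genes and for 11 of 16 S phase genes, against 17.2% of all genes. Its log2 CPM lay below the mean of the other HCT116 libraries (median difference -2.81 over mitosis genes and -1.47 over S phase genes, on the log2 scale, beside -0.02 over all genes). The highest library was HCT116 replicate 7 for 9 S phase and 9 mitosis genes, against 9.62% of all genes. Replicate 8 was the highest for 0 S phase and 7 mitosis genes, against 11.7%, and replicate 9 for 3 and 5, against 12.4%.

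As a summary of each library, the log2 CPM of each gene minus its 10-library mean was averaged over the genes. The mitosis level was -0.06, -0.57 and -2.35 in HCT116 replicates 1, 2 and 3, and 0.78, 0.81 and 0.78 in replicates 7, 8 and 9. DNMT1 KO replicates 1 to 4 were at 0.16, 0.42, -0.36 and 0.38, between the extremes of HCT116. The S phase level was 0.41, -0.89 and -1.36 in HCT116 replicates 1 to 3, 0.90, 0.49 and 0.50 in replicates 7 to 9, and 0.04, 0.36, -0.74 and 0.29 in DNMT1 KO replicates 1 to 4. Within batch 2, replicate 3 was thus below replicate 2 in both groups on both levels. DNMT1 KO replicate 3 was below replicate 2 for 16 of 16 S phase genes (median log2 difference -1.17) and 22 of 25 mitosis genes (-0.85), against 46.9% of all genes.

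**Figure D3:**
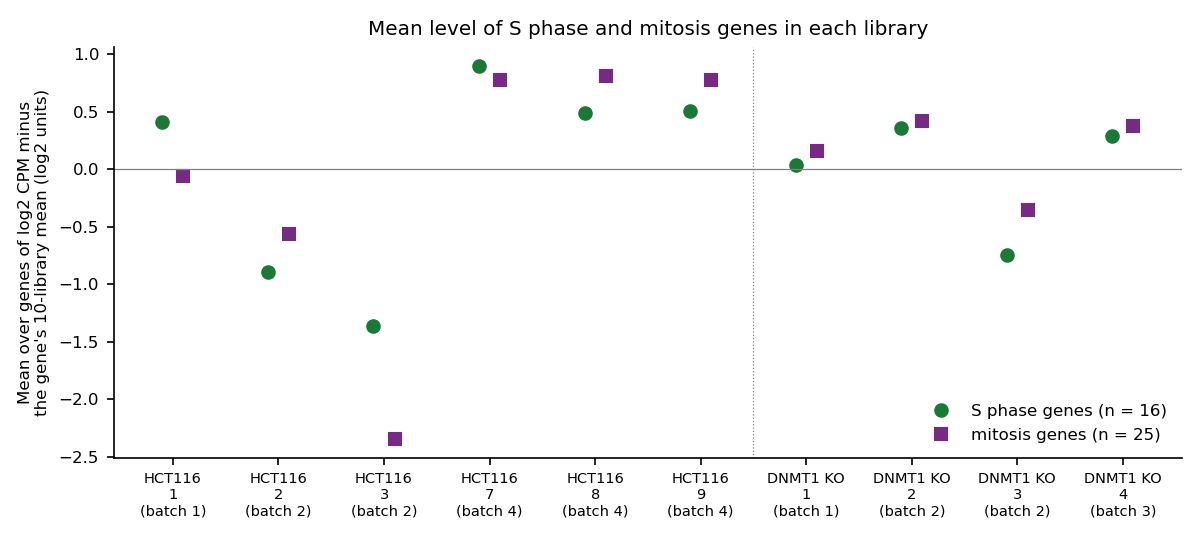
Mean level of the 16 S phase genes (green circles) and 25 mitosis genes (purple squares) in each of the 10 libraries, as log2 CPM minus the 10-library mean of each gene (vertical axis, log2 units), with the batch under each library. HCT116 replicate 3 is at -2.35 for mitosis genes, and the 3 batch 4 libraries are at 0.78 to 0.81.

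The levels of the S phase and mitosis genes did not move by the same amount. The S phase level minus the mitosis level was 0.98 in HCT116 replicate 3 and 0.47 in replicate 1, and lay between -0.33 and 0.13 in the other HCT116 libraries. In DNMT1 KO it lay between -0.39 and -0.06. HCT116 replicate 3 was thus lower in mitosis than in S phase genes, while HCT116 replicate 2 was lower in S phase genes (-0.89 against -0.57).

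The 3 HCT116 batches were then compared with each other, without DNMT1 KO, as a measure of how far these genes vary in 1 cell line. A difference among batches 1, 2 and 4 passed an adjusted p of 0.05 for 13 of 16 S phase and 21 of 25 mitosis genes, against 16.1% of 21144 genes. This rests on 3 residual degrees of freedom, since batch 1 is 1 library. Without HCT116 replicate 3 the counts were 4 of 16 and 10 of 25, and 1537 of all genes in place of 3414.

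In HCT116 batch 4 against batches 1 and 2, all 25 mitosis genes and 15 of 16 S phase genes had a positive log2 fold change, with medians of 1.53 and 1.04 beside 0.01 over all genes. The test called 11 of 25 mitosis genes and 1 of 16 S phase genes higher and none lower, against 3.09% of 18656 genes called higher and 4.94% called lower (3.1% and 4.94% by the adjusted p alone). Every batch 4 library lay above every batch 1 and 2 library for 21 mitosis and 9 S phase genes, against 14.9% of all genes. The batch 4 libraries are also the deepest. With counts thinned to the smallest total, the medians were 1.54 and 1.04, and 15 mitosis and 2 S phase genes were called.

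The number of calls rested on few libraries. Without HCT116 replicate 1 there were 21 mitosis and 14 S phase calls. There were 4 and 1 without replicate 3, and 1 and 0 without replicate 2 or 8. Without replicate 7 or 9 no member was called. The calls over all genes moved too, from 577 genes called higher with every library in. They were 1800, 46, 273, 178, 122 and 47 without replicates 1, 2, 3, 7, 8 and 9 in turn. The median over mitosis genes stayed between 1.09 and 2.10 in these fits, and that over S phase genes between 0.74 and 1.77.

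GINS2, a subunit of the GINS complex of the replicative helicase, was the S phase gene called. Its values were 89.4, 24.5 and 18.6 CPM in HCT116 replicates 1, 2 and 3, and 128, 220 and 225 CPM in replicates 7, 8 and 9, so that the batches did not overlap. The log2 fold change was 2.10 (SE 0.51, adjusted p = 0.0226). DNMT1 KO was at 68.6, 105, 33.8 and 94.4 CPM.

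Of the cyclins, CCNB1 was at 193, 102 and 30.5 CPM in HCT116 replicates 1 to 3 and at 343, 506 and 470 CPM in batch 4 (log2 fold change 2.01, SE 0.50, adjusted p = 0.0264). CCNA2, cyclin A2, was at 123, 52.3 and 12.1 CPM against 235, 286 and 272 CPM (log2 fold change 2.07, SE 0.56, adjusted p = 0.0372). The batches did not overlap for either, and DNMT1 KO lay inside the HCT116 range, at 204, 258, 115 and 251 CPM for CCNB1 and at 167, 118, 78.8 and 169 CPM for CCNA2.

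The spindle checkpoint kinases moved alike. BUB1, which acts at unattached kinetochores, was at 48.6, 42.2 and 10.6 CPM in batches 1 and 2 and at 121, 148 and 130 CPM in batch 4 (log2 fold change 1.97, SE 0.44, adjusted p = 0.0170). TTK was at 27.5, 18.6 and 5.02 CPM against 50.4, 66.5 and 75.2 CPM (log2 fold change 1.90, adjusted p = 0.0242). In DNMT1 KO, BUB1 had 72.7, 81.4, 38.8 and 79.2 CPM and TTK had 39.2, 35.7, 27.3 and 41.7 CPM, below every batch 4 value of HCT116. BUB1B, whose product BUBR1 inhibits CDC20, was at 50.4, 37.7 and 12.7 CPM against 110, 82.6 and 84.0 CPM (log2 fold change 1.45, adjusted p = 0.0436), with 67.0, 89.1, 35.6 and 77.8 CPM in DNMT1 KO.

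The Aurora kinases, which act on the spindle and at the centromere, were called as well. AURKA was at 74.8, 42.2 and 17.9 CPM against 144, 142 and 124 CPM (log2 fold change 1.59, adjusted p = 0.0325), and AURKB at 52.7, 30.4 and 11.5 CPM against 105, 99.6 and 94.1 CPM (log2 fold change 1.65, adjusted p = 0.0308). BIRC5, or survivin, the partner of AURKB in the passenger complex, was at 307, 105 and 43.7 CPM against 485, 695 and 582 CPM (log2 fold change 1.94, adjusted p = 0.0387). For all 3 the lowest library was HCT116 replicate 3 and the batches did not overlap.

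The remaining calls were genes of the metaphase to anaphase step, the centromere and cytokinesis. CDC20 was at 186, 70.1 and 30.8 CPM against 416, 313 and 280 CPM (log2 fold change 1.80, adjusted p = 0.0398). CENPA, the histone of centromeric chromatin, was at 23.9, 17.2 and 3.88 CPM against 38.0, 58.8 and 48.4 CPM (log2 fold change 1.68, adjusted p = 0.0442). KIF23, a motor of the central spindle, was at 52.5, 58.4 and 17.2 CPM against 122, 103 and 115 CPM (log2 fold change 1.40, adjusted p = 0.0415). None of these had overlapping batches. The 14 mitosis genes not called had log2 fold changes from 0.36 for UBE2C, the ubiquitin-conjugating enzyme of the anaphase-promoting complex, to 1.86 for NUF2 of the kinetochore. The 15 S phase genes not called ran from -0.01 for CDT1 to 1.68 for RRM2.

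Of the labelled batches, 1 and 2 hold both groups, so the DNMT1 KO comparison was repeated within them. In batch 1, with 1 library per group, DNMT1 KO was below HCT116 for 14 of 16 S phase genes (median log2 ratio -0.38) and above it for 21 of 25 mitosis genes (median 0.24). In batch 2 DNMT1 KO was above HCT116 for 15 of 16 S phase genes (median 0.98) and for 25 of 25 mitosis genes (median 1.5). Without HCT116 replicate 3 these were 14 of 16 (median 0.82) and 22 of 25 (median 0.57), beside a median of 0.01 over all genes. Both DNMT1 KO libraries lay above both HCT116 libraries of batch 2 for 11 S phase and 15 mitosis genes, against 26.5% of all genes. The pooled medians, with batches 3 and 4 in and no batch term, were -0.24 (S phase) and -0.03 (mitosis), beside -0.07 over all genes.

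**Figure D4:**
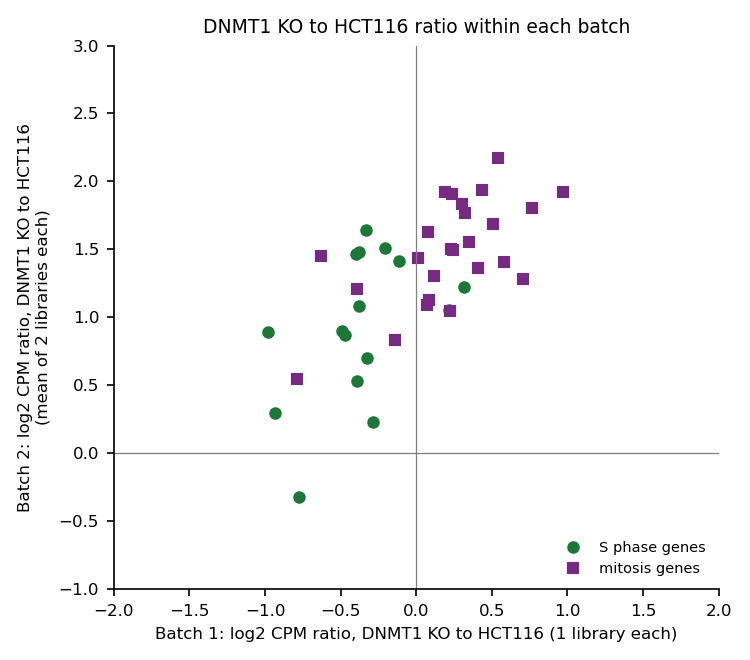
log2 ratio of CPM, DNMT1 KO to HCT116, of each gene within batch 1 (horizontal axis, 1 library each) and within batch 2 (vertical axis, mean of 2 libraries each), S phase genes as green circles and mitosis genes as purple squares. S phase genes lie mostly left of 0 in batch 1 and above 0 in batch 2, and 25 of 25 mitosis genes lie above 0 in batch 2.

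When batches 1 and 2 were fitted with a batch term, the log2 fold change was positive for 15 of 16 S phase genes (median 0.62) and 25 of 25 mitosis genes (median 0.99), and none of the 41 passed an adjusted p of 0.05, against 7.8% of 18681 genes that passed as higher and 7.7% as lower. An unadjusted p under 0.05 was reached by 3 of 16 S phase and 8 of 25 mitosis genes in this edgeR fit, against 5293 of 18681 genes. With batch as a term over all 10 libraries, where batch 4 adds to the estimate of the spread but not to the contrast, 4 of 25 mitosis genes were called higher in DNMT1 KO, against 8.42% of all genes. They were CENPF (1.53, adjusted p = 0.0177), KIF20A, a motor of cytokinesis (1.76, adjusted p = 0.0208), BIRC5 (1.31, adjusted p = 0.0373) and CDC20 (1.32, adjusted p = 0.0436). None of the 41 was called in this fit without HCT116 replicate 3 (mitosis median 0.54) or without DNMT1 KO replicate 2 (0.50), and 7 to 9 mitosis genes were called without any other single library of batches 1 and 2. In those fits 4 S phase genes were also called without HCT116 replicate 1 or DNMT1 KO replicate 1, 2 without DNMT1 KO replicate 3 and none without HCT116 replicate 2, against 6.46 to 7.6% of all genes. Without HCT116 replicate 1 or DNMT1 KO replicate 1, batch 1 holds 1 group, so those fits contrast the groups in batch 2 only. A fit of the batch 2 libraries alone called none of the 41.

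The list of other cell cycle genes gave the setting. Of 36 other replication genes and 10 other nucleotide synthesis genes, 1 each passed as lower in DNMT1 KO and none as higher. None of 46 other mitosis genes, 9 E2F and DP factors or 8 genes of the MuvB, MYB and FOXM1 group passed. Of 16 regulators of mitotic entry and exit 1 passed as lower, of 9 CDK inhibitors and RB family genes 1 as lower, and of 6 G1 cyclins and CDKs 1 as higher. Over all genes tested 8.45% passed as higher and 7.61% as lower. Median log2 fold changes lay between -0.32 and 0.22 in these lists. In HCT116 batch 4 against batches 1 and 2, 10 of 36 replication and 15 of 46 mitosis genes were called higher, against 3.09% of all genes. Their medians were 1.05 and 1.35, and no gene of either list had a negative value.

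CDKN1A, the CDK inhibitor that p53 induces, separated the groups. HCT116 values were 230, 481 and 689 CPM (lowest, median and highest), and DNMT1 KO had 80.9, 70.3, 176 and 51.3 CPM. The highest DNMT1 KO library, replicate 3, was below the lowest of HCT116. The log2 fold change was -2.28 (SE 0.40, adjusted p = 0.000855), and the log2 ratios within batches 1 and 2 were -2.56 and -2.49.

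ORC2, a subunit of the origin recognition complex, was at 41.5, 51.5 and 60.3 CPM in HCT116 and at 14.0, 16.5, 15.5 and 16.6 CPM in DNMT1 KO. The groups were far apart, and both were tight. The log2 fold change was -1.69 (SE 0.21, adjusted p = 3.7e-05), with -1.56 and -1.61 within batches 1 and 2. CDC25B, a phosphatase that activates CDK1 at mitotic entry, was at 224, 348 and 408 CPM against 205, 192, 132 and 208 CPM (log2 fold change -0.87, SE 0.24, adjusted p = 0.0222), again without overlap. CDC25B no longer passed without HCT116 replicate 1 or DNMT1 KO replicate 1, 2 or 3.

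DTYMK, thymidylate kinase, was at 21.9, 81.1 and 129 CPM in HCT116 and at 30.6, 23.8, 14.3 and 34.6 CPM in DNMT1 KO. The groups overlapped through the HCT116 libraries of batch 2. Its log2 fold change of -1.57 (SE 0.47, adjusted p = 0.0333) was -0.70 when batches 1 and 2 were fitted with a batch term (adjusted p = 0.186). The call was also lost without any 1 of HCT116 replicates 1, 7, 8 and 9 or DNMT1 KO replicates 1, 2 and 3. CCND2, cyclin D2, was at 0 in 4 HCT116 libraries and at most 0.0451 CPM in the others, and was at 0.707, 0.888, 5.80 and 0.729 CPM in DNMT1 KO (edgeR adjusted p = 7.56e-05, with no adjusted p given by DESeq2).

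**Figure D5:**
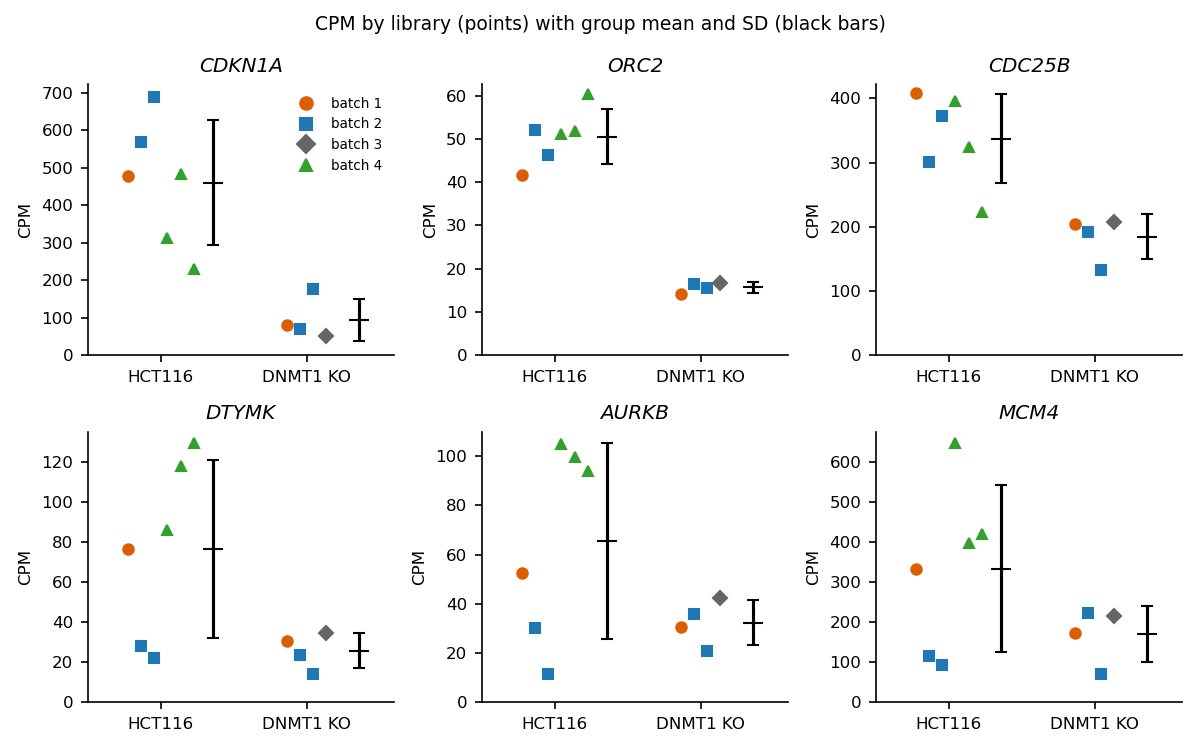
CPM (vertical axes, from 0) of CDKN1A, ORC2, CDC25B, DTYMK, AURKB and MCM4 in the 6 HCT116 and 4 DNMT1 KO libraries, with marker shape and colour for the batch and black bars for the group mean and SD. CDKN1A, ORC2 and CDC25B do not overlap between the groups, whereas AURKB and MCM4 do.

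A few genes outside the 41 moved against them between the HCT116 batches. CDKN2B, an inhibitor of CDK4 and CDK6, was at 16.7, 62.4 and 77.7 CPM in HCT116 replicates 1, 2 and 3 and at 7.03, 9.10 and 6.70 CPM in batch 4 (log2 fold change -2.80, SE 0.47, adjusted p = 0.00507). RBL2, the pocket protein p130 of the repressive DREAM complex, was at 44.2, 57.5 and 59.8 CPM against 22.0, 32.7 and 22.6 CPM (log2 fold change -1.08, adjusted p = 0.0440). It no longer passed with no filter on low counts (adjusted p = 0.0513), with the length trend removed (0.0583) or without any 1 of HCT116 replicates 2, 3, 7, 8 and 9 (0.0893 to 0.210), and CDKN2B did not pass without replicate 7 (edgeR adjusted p = 0.0511). Both were highest in HCT116 replicate 3, the library with the lowest mitosis level. The epithelial genes CDH1 (log2 fold change -2.38, adjusted p = 0.00423) and CLDN7 (-1.28, adjusted p = 0.0370) were also lower in batch 4, the CLDN7 call being lost without any 1 of replicates 2, 3, 7, 8 and 9. The part of any of these in the batch difference was not tested.

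On the other side, E2F8, an E2F repressor expressed in S phase, was at 21.6, 17.9 and 10.0 CPM against 67.2, 39.7 and 49.0 CPM in batch 4 (log2 fold change 1.64, adjusted p = 0.0142). POLE2 of DNA polymerase epsilon (2.19, adjusted p = 0.0169), GINS1 (2.12, adjusted p = 0.0163) and ORC6 (1.81, adjusted p = 0.0169) led the other replication genes on the log2 scale. DLGAP5 (2.3, adjusted p = 0.0138), CENPN (1.84, adjusted p = 0.0132) and PLK4, the kinase of centriole duplication (1.78, adjusted p = 0.0131), led the other mitosis genes. The G1 kinase gene CDK6 (1.27, adjusted p = 0.0483), LIN52 of the MuvB core (1.37, adjusted p = 0.0194) and the mitotic entry genes MASTL (1.43, adjusted p = 0.0226), CDC25A (1.40, adjusted p = 0.0399) and GTSE1 (1.70, adjusted p = 0.0407) rose too. CDK6, MASTL, CDC25A and GTSE1 did not pass without any 1 of HCT116 replicates 2, 3, 7, 8 and 9. E2F8, POLE2, GINS1, ORC6 and CENPN did not pass without replicate 2, 7 or 9, LIN52 without 2, 8 or 9, DLGAP5 without 7 and PLK4 without 9.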

How the data were processed

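Raw counts per gene were deposited by the authors, 1 table per library. Per the labels and the study's methods, polyadenylated RNA was sequenced as stranded, paired-end libraries, reads were trimmed with Trim Galore 0.4.1, mapped to hg38 with bowtie2, filtered by mapping quality and counted over exons with featureCounts, and no strand option is named. A further 3 tables match no listed sample and were not used. Gene symbols and coordinates came from GENCODE release 44.

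The members were taken by name, but they and the lists were chosen with earlier results of these data known. Low counts (1 to 10) were even for 64.4 to 70.0% of genes in 9 libraries but for 39.9% in DNMT1 KO replicate 4, so counts may be mates counted apart. In R 4.3.3, edgeR 4.0.16 (TMM, filterByExpr, glmQLFTest, two-sided, group as the sole term, Benjamini-Hochberg over all genes tested) gave log2 fold changes. Calls needed both an adjusted p below 0.05 and a log2 fold change beyond 1 or -1, and SE is the change divided by the root of F. CPM are counts per 1000000 of TMM-scaled totals, and averages over genes use log2 CPM with a prior count of 2. Values by library are given for members called in a comparison and, in each list, the members of smallest p up to 6. CENPF was named beside this rule, after its value was seen. Other lists give up to 3 genes each by p, where the higher group averaged 1 CPM or more. DESeq2 1.42.0, other filters and scalings, batch terms and left-out libraries were alternatives. The steps were tested on simulated data. Whether the number of libraries, their batches or their depth limits the precision was not tested.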

Additional observations from a re-analysis of the deposited data

Results flagged for a closer look

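The following values are given here because a single library was separated from all others of its group by more than Dixon's 95% critical gap. Of 124 groups of values examined 3 did so, where chance alone would give about 6.2. MCM2, a helicase subunit, was at 254 CPM in HCT116 replicate 7, with the next highest HCT116 library at 118 CPM. PLK1, the Polo-like kinase of mitotic entry, was at 69.4 CPM in DNMT1 KO replicate 3, with the other DNMT1 KO libraries at 171 to 191 CPM. CCND2 was at 5.80 CPM in DNMT1 KO replicate 3, with the others at 0.707 to 0.888 CPM.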

How the results depend on the processing

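In DNMT1 KO against HCT116 the median over mitosis genes, near 0, changed sign under 15 of 24 alternatives, and that over S phase genes under 5. Single libraries left out gave medians of -0.38 to -0.05 (S phase) and -0.18 to 0.14 (mitosis). With batch as a term over all libraries 4 mitosis genes were called higher, and AURKB (0.031), MCM4 (0.034), CDC6 (0.056) and CCNE2 (0.33) turned positive on the log2 scale. With batches 1 and 2 alone and a batch term these 4 were at 0.033, 0.036, 0.057 and 0.34, and without the term CDC6 was at 0.045 and CCNE2 at 0.20. In batch 2 alone 815 genes were called higher and 798 lower, but none of the 41. The medians there were 1.12 (S phase) and 1.39 (mitosis). In that fit AURKB was at 0.44, MCM4 at 0.51, CDC6 at 0.23 and CCNE2 at 0.75. With at least 10 counts in every library fewer genes were tested, and 734 were called higher and 766 lower. Leaving out 1 library gave 0 or 1 mitosis gene called lower (AURKB, without HCT116 replicate 3). DTYMK and CDC25B also no longer passed with library totals as the scale. Chosen after the data had been seen, leaving out HCT116 replicate 3 and DNMT1 KO replicate 3 together gave no call among the 41 and medians of -0.17 and -0.05. Chosen then too, the fits with batch as a term over all libraries and 1 library of batches 1 and 2 left out called 0 to 4 S phase and 0 to 9 mitosis genes higher, and without HCT116 replicate 3 the DNMT1 KO libraries lay inside the HCT116 range for 14 mitosis genes. The ratios within batch 2 and the SDs without that library were also chosen after the data had been seen.

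Replicate numbers 1 to 3 occur in both groups. Libraries that share a number showed correlations of 0.46, -0.20 and 0.37 between their deviations from the group means. Correlations between libraries of unlike number were not computed, so these values cannot decide whether the numbers pair the libraries. The main fit did not pair them. With a replicate block over these 6 libraries 3 mitosis genes were called higher (CENPF, KIF20A and CENPA, against 6.59% of all genes), DTYMK and CDC25B no longer passed, and AURKB was at 0.10, CDC6 at 0.060 and CCNE2 at 0.43.

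In HCT116 batch 4 against batches 1 and 2, S phase calls were 4 with at least 10 counts in every library, 8 with no filter, 7 by DESeq2, 2 with halved counts, 2 with thinned counts, 3 with the length trend removed and 14 against batch 2 only. Mitosis calls were 22 with no filter, 18 by DESeq2 and 22 against batch 2 only. Over all genes, 1280 were called higher with no filter. DESeq2 called 1079 higher and 1388 lower, and the fit against batch 2 only called 1844 and 1776. Leaving out 1 library gave 0 to 14 S phase calls, 0 to 21 mitosis calls, 46 to 1800 genes higher and 187 to 1770 lower. CDT1, near 0 there, was at 0.0014 by RLE factors, 0.0013 by DESeq2, 0.00035 with halved counts, 0.020 with the 10-count filter, 0.046 with no filter, 0.039 with the length trend removed and 1.17 against batch 2 only, and ran from -0.44 to 1.16 without 1 library. For any difference among the 3 batches, with alternatives chosen after the data had been seen, leaving out 1 library of batch 2 or 4 gave 4 to 14 S phase genes, 10 to 25 mitosis genes and 1537 to 3902 of all genes. The causes of these changes were not tested. Batches 3 and 4 hold 1 group each, so batch and group cannot be told apart there.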
